A study of Mus musculus with 18 samples.

Results

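The genes described are those of the fibrillar collagens of type I (Col1a1, Col1a2), type III (Col3a1) and type V (Col5a1, Col5a2, Col5a3), of the fibril-associated type XII collagen (Col12a1) and of type VI collagen (Col6a1, Col6a2, Col6a3). They were chosen by name, by matching the Ensembl identifiers of the count table to gene symbols, and all 10 were found among its 54532 genes. The study sequenced polyadenylated RNA from the gastrocnemius, the large calf muscle, of female C57BL/6 mice. Unloading of the hindlimbs removes weight bearing and wastes the muscle, and reloading lets the animals stand again. There were 3 libraries in each of 6 groups: Zfp697 mKO mice as controls, after 10 days of unloading and after 3 days of reloading that followed unloading, and flox/flox mice at the same stages. The controls lived in ordinary cages, the mKO is a conditional knockout of Zfp697 in skeletal muscle, and the flox/flox mice are called wild type in the design text. The labels name neither the Cre line nor the ages of the mice and do not say whether each library is a different animal. The p-values thus reflect no more than the spread among these samples, which may be technical.

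Collagens are secreted triple helices. Type I and type III helices assemble into the striated fibrils that carry tension through endomysium, perimysium and tendon, type V helices start those fibrils and limit their width, and type XII sits on their surface. Type VI collagen forms beaded filaments that tie the fibre's basement membrane to the fibrils, and mutations of its genes cause muscular dystrophy in people. In muscle these genes are transcribed mostly by fibroblasts and fibro-adipogenic progenitors, the connective tissue cells between fibres.

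The libraries held 45069595 to 51592566 counts, and the collagen genes had 631 to 84130 counts each per library, so counting error was small beside the spread between libraries. Levels are given as CPM, a gene's counts scaled to a common library size. The 12 myofibre markers summed to 129076 to 185927 CPM, with none at 0. Zfp697 itself was low, at 1.20 ± 0.134 CPM in mKO controls, 1.66 ± 0.720 in unloaded mKO and 1.68 ± 0.247 in reloaded mKO muscle, against 1.19 ± 0.350, 1.65 ± 0.0809 and 2.57 ± 0.230 CPM at the same stages in flox/flox muscle (SD, n = 3 each). Since the deleted exons are not given in the sources used here, this level does not test the labels.

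**Figure D1:**
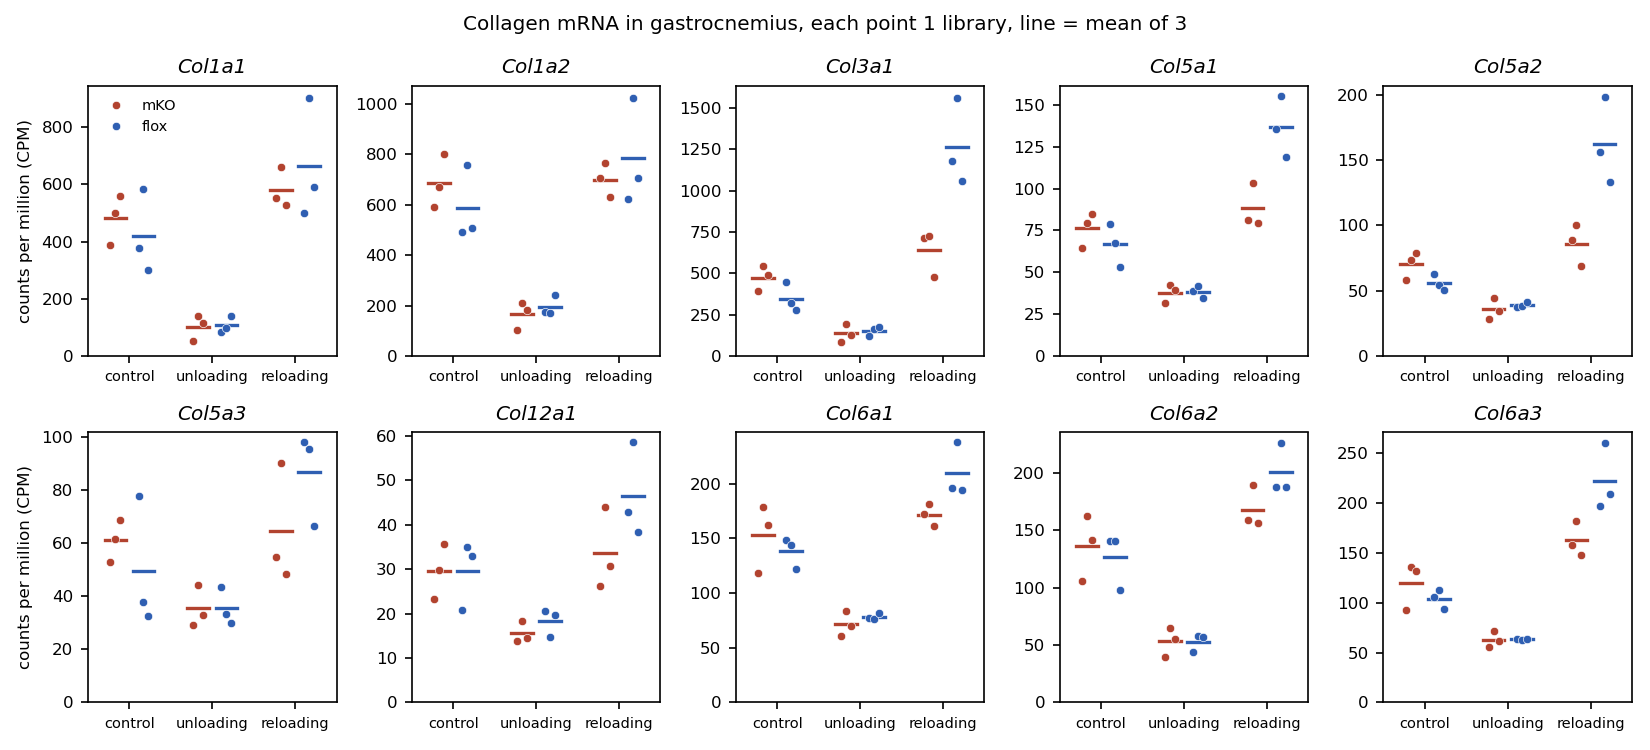
CPM of the 10 collagen genes (y axis, linear from 0, a separate scale in each panel) at each loading stage (x axis) in mKO (red, left) and flox/flox (blue, right, labelled flox) muscle. Each point is 1 library and each line the mean of 3. All 10 genes are lowest after unloading in mKO muscle, and the reloaded mKO points of Col3a1, Col5a1, Col5a2, Col6a1 and Col6a3 lie below every reloaded flox/flox point of the same gene.

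The plot of CPM by library shows the same course in both genotypes: the collagens were high in controls, low after 10 days without load, and high again after 3 days of reloading. In mKO muscle the 10 genes ended at 1.02 to 1.35 times their control levels and none passed the test, where 2.18% of all genes tested did. Of the same genes in flox/flox muscle, 8 ended above their own controls, as 12.3% of all genes tested did, with Col3a1 at 3.65 times and Col5a2 at 2.92 times the control level. These counts describe each genotype against its own controls and do not test a difference between the genotypes. The summed level of the 10 genes was 2291 ± 357 CPM in mKO controls, 717 ± 207 CPM after unloading and 2694 ± 355 CPM after reloading. The same sum was 1923 ± 344 CPM in flox/flox controls, 781 ± 92.1 CPM after unloading and 3779.6 ± 813 CPM after reloading (SD, n = 3 each). In such bulk samples, fewer cells of a type and less RNA per cell cannot be told apart.

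edgeR's quasi-likelihood test was run on 17833 genes for each comparison, and genes with a Benjamini-Hochberg adjusted p below 0.05 were called. After unloading, 9 of the 10 collagen genes fell in mKO muscle, where 3.66% of all tested genes fell. In flox/flox muscle 7 fell, where 3.07% of all genes did. Their median log2 fold change was -1.06 in mKO and -0.81 in flox/flox muscle, against -0.01 and 0.00 over all tested genes. With reloading, all 10 rose over unloading in mKO muscle, where 18.3% of all genes were called in either direction, and all 10 in flox/flox muscle, where 31.9% were. The medians were 1.32 and 1.88, against 0.01 and 0.00 over all genes. The reloaded libraries of all 10 genes lay wholly above the unloaded ones in mKO (16.6% of all genes did so) and in flox/flox muscle (23.1%). Leaving out each library in turn gave 8 to 10 fallen genes in mKO and 6 to 7 in flox/flox muscle on unloading, and 9 to 10 and 10 risen genes on reloading.

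In reloaded mKO muscle edgeR called 0 of the 10 collagen genes against controls, where 2.18% of all genes were called in either direction. There, 1 gene, Col6a3, had an unadjusted p under 0.05, where 2858 of all 17833 genes did. It was also the 1 gene with a range wholly above the controls (10.0% of all genes had one), and DESeq2 called that gene alone. In reloaded flox/flox muscle 8 of 10 were higher than in controls, where 12.3% of all genes were, and 7 had ranges wholly above the controls (20.7% of all genes). The count of 8 was 5 without replicate 3 of the flox/flox controls or replicate 2 of reloaded flox/flox muscle. When libraries were scaled by total counts in place of TMM, the median of all genes moved by 0.11 for reloading against unloading and by 0.15 for reloading against control in flox/flox muscle. With that scaling 71.8% and 80.5% of their calls were higher, against 53.3% and 54.3% with TMM, and the counts of collagens called were within 1.5 times of those given.

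**Figure D2:**
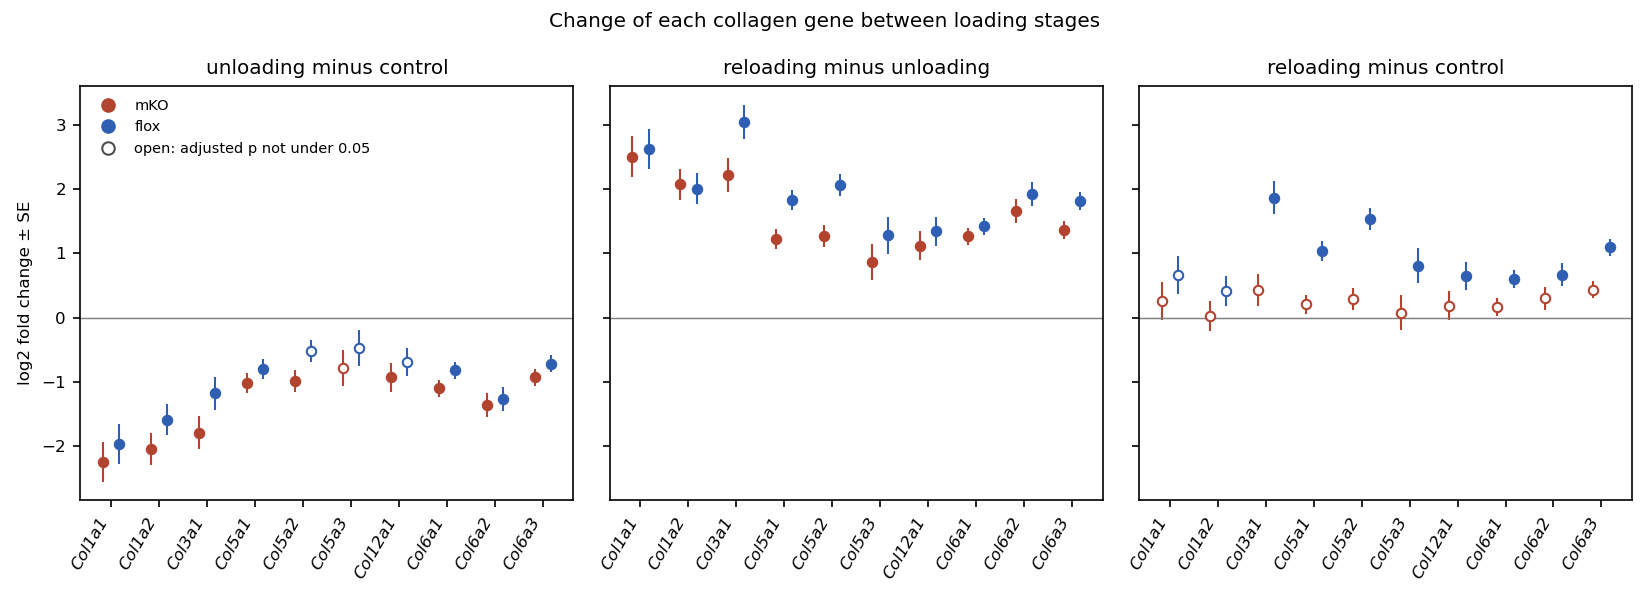
Log2 fold change with its standard error (y axis) of each collagen gene (x axis) in mKO (red, left) and flox/flox (blue, right, labelled flox) muscle, for unloading minus control, reloading minus unloading and reloading minus control. Filled points have an adjusted p under 0.05 and open points do not. All points lie below 0 on unloading and above it on reloading, and all mKO points are open for reloading minus control.

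Col1a1 and Col1a2 encode the chains of type I collagen, the main load-bearing collagen of tendon and muscle connective tissue. In mKO muscle Col1a1 (chromosome 11, 94936224 to 94953042, plus strand of GRCm38) had 387, 502 and 560.1 CPM in controls, 53.1, 139 and 114 CPM after unloading and 552, 659.9 and 529 CPM after reloading. In flox/flox muscle it had 378, 584 and 299 CPM in controls, 84.5, 99.1 and 139 CPM after unloading and 501, 902 and 589.7 CPM after reloading. Unloaded libraries were thus below every control, and reloaded ones overlapped the controls in both genotypes. Its fall was the steepest of the 10 genes, at a log2 fold change of -2.24 ± 0.31 (SE, adjusted p = 0.000424) in mKO and -1.97 ± 0.31 (SE, adjusted p = 0.00149) in flox/flox muscle. Reloading raised it over unloading by 2.51 ± 0.32 (SE, adjusted p = 5.85e-05) and 2.63 ± 0.32 (SE, adjusted p = 8.50e-06) in mKO and flox/flox muscle. Against controls the reloaded level differed by 0.26 (adjusted p = 0.729) in mKO and by 0.66 (adjusted p = 0.124) in flox/flox muscle, neither of which passed the test, although the flox/flox value reached an adjusted p of 0.0459 without replicate 2 of the controls.

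Col1a2 (chromosome 6, 4504814 to 4541544, plus strand) had 589.8, 669.8 and 802 CPM in mKO controls, 104, 211 and 184 CPM after unloading and 706, 764 and 630.0 CPM after reloading. Flox/flox controls had 493, 758 and 508 CPM, unloaded flox/flox muscle 175, 169.9 and 240.0 CPM and reloaded flox/flox muscle 623, 1026 and 706 CPM. The order of the stages and the overlap of reloaded with control libraries were those of Col1a1. It fell on unloading, with log2 fold changes of -2.05 (adjusted p = 0.000162) in mKO and -1.59 (adjusted p = 0.00101) in flox/flox muscle and rose on reloading by 2.08 and 2.01. Reloaded minus control was 0.03 (adjusted p = 0.973) in mKO and 0.42 (adjusted p = 0.213) in flox/flox muscle.

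Col3a1, the single chain of type III collagen, which is abundant in compliant tissue and in healing wounds, lies on the plus strand of chromosome 1 from 45311538 to 45349706. In mKO muscle it had 392, 544 and 487 CPM in controls, 86.5, 196 and 128 CPM after unloading and 714, 725 and 479 CPM after reloading. Its level in flox/flox muscle was 446, 317 and 277 CPM in controls, 121, 162 and 176 CPM after unloading and 1179, 1559 and 1060.4 CPM after reloading. The reloaded mKO libraries overlapped the mKO controls, while the reloaded flox/flox libraries were the 3 highest of all 18. Unloading lowered it, with log2 fold changes of -1.79 ± 0.26 (SE, adjusted p = 0.000600) in mKO and -1.18 ± 0.25 (SE, adjusted p = 0.0115) in flox/flox muscle. The flox/flox fall missed the threshold without replicate 1 of the controls or of the unloaded libraries, at adjusted p = 0.0662 and 0.0688. Reloading over unloading gave 2.23 ± 0.26 (SE, adjusted p = 3.66e-05) in mKO and 3.05 ± 0.27 (SE, adjusted p = 4.08e-07) in flox/flox muscle, the largest rise of the 10 genes there. Reloading minus control was 0.43 (adjusted p = 0.421) in mKO and 1.87 (adjusted p = 6.86e-05) in flox/flox muscle. Col3a1 shares 141 of its exon bases with the gene Gm47302, which had 0 counts in all libraries.

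Type V chains are made at low levels and seed the type I fibrils. Col5a1 (chromosome 2, 27886425 to 28039514, plus strand) had 64.3, 79.8 and 85.1 CPM in mKO controls, 31.4, 42.7 and 39.2 CPM after unloading and 81.5, 103 and 79.6 CPM after reloading. The flox/flox libraries had 79.0, 67.7 and 53.1 CPM as controls, 38.7, 41.7 and 34.5 CPM after unloading and 136, 155 and 119 CPM after reloading. Its unloaded libraries were the lowest in both genotypes. Col5a2 (chromosome 1, 45374321 to 45503282, minus strand) had 58.5, 73.7 and 78.7 CPM in mKO controls, 28.1, 44.0 and 34.7 CPM after unloading and 88.9, 101 and 68.8 CPM after reloading. In flox/flox muscle it had 62.5, 54.6 and 50.2 CPM in controls, 37.2, 38.1 and 41.0 CPM after unloading and 156, 198 and 133 CPM after reloading. For both genes the reloaded flox/flox libraries stood above all other libraries. On unloading the log2 fold change of Col5a1 was -1.02 (adjusted p = 0.000974) in mKO and -0.80 (adjusted p = 0.00613) in flox/flox muscle. Col5a2 fell in mKO muscle, with -0.98 (adjusted p = 0.00253), and its flox/flox value of -0.52 (adjusted p = 0.0790) missed the threshold, which it passed with DESeq2 (adjusted p = 0.0309) and with no more than the compared groups in the fit (0.0150). Reloaded over control, Col5a1 was 0.21 (adjusted p = 0.544) in mKO and 1.04 (adjusted p = 0.000125) in flox/flox muscle, and Col5a2 was 0.29 (adjusted p = 0.416) and 1.54 (adjusted p = 1.05e-05). Exons of Col5a1 share 99 bases with 2810430I11Rik and 113 with Gm13372, which had 324 and 168 counts over all 18 libraries, too few to move its level.

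Col5a3 (chromosome 9, 20770050 to 20815067, minus strand), the least widespread type V chain, was the least uniform member. It had 52.9, 61.7 and 68.9 CPM in mKO controls, 29.3, 44.1 and 33.1 CPM after unloading and 55.0, 90.3 and 48.3 CPM after reloading. Flox/flox controls had 77.7, 37.9 and 32.7 CPM, unloaded flox/flox muscle 43.5, 33.4 and 30.1 CPM and reloaded flox/flox muscle 98.3, 95.6 and 66.3 CPM. Its flox/flox controls overlapped the unloaded and the reloaded libraries, with replicate 1 well above the other two. Neither fall on unloading passed the test, with -0.78 (adjusted p = 0.0959) in mKO and -0.47 (adjusted p = 0.372) in flox/flox muscle. The mKO fall was called with no more than the compared groups in the fit (adjusted p = 0.0198) and without replicate 1 of the flox/flox controls (0.0378), and the flox/flox value was 0.01 without that library. The rise on reloading was 0.86 (adjusted p = 0.0396) in mKO and 1.28 (adjusted p = 0.00202) in flox/flox muscle, and the mKO call was lost without replicate 1 or 3 of the unloaded or replicate 2 of the reloaded libraries (adjusted p = 0.151, 0.121 and 0.229), and with DESeq2 (adjusted p = 0.0557). Reloaded over control, the flox/flox value of 0.81 (adjusted p = 0.0434) was lost when any of 9 single libraries was left out, replicate 3 of the controls most (adjusted p = 0.194), and with DESeq2 (adjusted p = 0.0711). Without replicate 1 of the controls it was 1.30.

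Col12a1 (chromosome 9, 79598991 to 79718831, minus strand) encodes the type XII chain, which bridges fibrils in tendon and muscle. It had 23.3, 29.8 and 35.6 CPM in mKO controls, 13.8, 18.3 and 14.5 CPM after unloading and 26.2, 44.1 and 30.7 CPM after reloading. Its level in flox/flox muscle was 20.8, 35.1 and 32.9 CPM in controls, 20.5, 14.8 and 19.7 CPM after unloading and 42.8, 58.5 and 38.3 CPM after reloading. The unloaded libraries were the lowest in both genotypes, and the reloaded flox/flox libraries lay just above their controls. Unloading minus control was -0.93 (adjusted p = 0.0179) in mKO and -0.69 (adjusted p = 0.0790) in flox/flox muscle. The flox/flox fall was called with DESeq2 (adjusted p = 0.0245) and without replicate 1 of the flox/flox controls (0.0422). The mKO fall missed the threshold without replicate 2 or 3 of the mKO controls, or 1 or 3 of the unloaded mKO libraries, at adjusted p from 0.0509 to 0.0908. Reloading minus unloading was 1.12 (adjusted p = 0.00227) and 1.34 (adjusted p = 0.000195) in mKO and flox/flox muscle. Reloading minus control was 0.19 (adjusted p = 0.742) and 0.65 (adjusted p = 0.0394) in the same order, and the flox/flox call was lost without replicate 1 or 3 of the controls or 1 or 2 of the reloaded libraries, at adjusted p from 0.0551 to 0.217.

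The type VI genes Col6a1 (chromosome 10, 76708792 to 76726168), Col6a2 (chromosome 10, 76595762 to 76623630) and Col6a3 (chromosome 1, 90765923 to 90843971), all on the minus strand, encode the chains that join into a single type VI molecule. Col6a1 had 118, 178 and 162 CPM in mKO controls, 60.4, 83.5 and 69.8 CPM after unloading and 173, 181 and 161 CPM after reloading. The flox/flox libraries had 148, 144 and 122 CPM as controls, 77.0, 75.9 and 81.8 CPM after unloading and 196, 238 and 194 CPM after reloading. The unloaded libraries were again the lowest. Col6a3 had 92.7, 136 and 132 CPM in mKO controls, 56.0, 71.9 and 61.1 CPM after unloading and 158, 182 and 148 CPM after reloading. In flox/flox muscle it had 106, 113 and 93.4 CPM in controls, 63.4, 62.6 and 63.6 CPM after unloading and 197, 260.4 and 209 CPM after reloading. For Col6a1 the reloaded mKO libraries overlapped their controls while the reloaded flox/flox libraries were above theirs, and for Col6a3 reloaded libraries were above controls in both genotypes. Col6a2 averaged 137 ± 28.7, 53.3 ± 12.6 and 168 ± 18.3 CPM in mKO and 126 ± 24.7, 52.5 ± 7.81 and 201 ± 21.9 CPM in flox/flox muscle at the 3 stages (SD, n = 3 each). On unloading all 3 fell in both genotypes, Col6a2 by most, with -1.36 (adjusted p = 0.000343) in mKO and -1.27 (adjusted p = 0.000796) in flox/flox muscle. The values were -1.10 and -0.82 for Col6a1, and for Col6a3 -0.93 and -0.72. Reloaded over control, none of the mKO values passed, at 0.17 for Col6a1, 0.30 for Col6a2 and 0.43 for Col6a3. In flox/flox muscle Col6a1 rose by 0.60 (adjusted p = 0.00332), Col6a2 by 0.67 (adjusted p = 0.0121) and Col6a3 by 1.09 (adjusted p = 2.82e-05). The flox/flox call of Col6a2 was lost without replicate 3 of the controls or replicate 2 of the reloaded libraries, at adjusted p = 0.0771 and 0.0655.

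Levels of different genes were set against each other as CPM per kilobase of exon (FPKM), using the length of all exons in the table. In mKO controls the order was Col1a1 at 73.6 ± 13.4, Col1a2 at 55.3 ± 8.61, Col3a1 at 48.3 ± 7.82 and Col6a1 at 34.9 ± 7.05 FPKM, and the libraries of neighbours in this order overlapped. Col6a2 (16.4 ± 3.45) and Col6a3 (10.1 ± 2.0) followed, then Col5a1 (9.0 ± 1.28), Col5a3 (8.98 ± 1.18) and Col5a2 (7.33 ± 1.10), and Col12a1 was lowest at 1.94 ± 0.404 FPKM (SD, n = 3 each). By exon length, Col1a1, Col1a2, Col3a1 and Col6a1 in all 6 groups made up the top 4 in some order, clear of Col6a2 below them, and Col12a1 was lowest and clear of the gene above it. After unloading Col6a1 had the highest mean, at 16.3 ± 2.65 FPKM in mKO and 17.9 ± 0.723 FPKM in flox/flox muscle, overlapping Col1a1, Col1a2 and Col3a1. After reloading Col1a1 led in mKO muscle at 88.4 ± 10.6 FPKM, clear of Col3a1 at 65.2 ± 14.1. In reloaded flox/flox muscle Col3a1 led at 129 ± 26.5 FPKM, overlapping Col1a1 at 101 ± 32.1. This order depends on the length used. The exons of Col1a2 in the table cover 12426 bases, for example, while its longest coding transcript in GENCODE vM21 has 5348. With coding transcript lengths Col1a2 exceeded Col1a1 in all 6 groups and Col3a1 exceeded Col1a1 in all but the flox/flox controls. By these lengths reloaded mKO muscle had 131 FPKM of Col1a2, 115 of Col3a1 and 97.9 of Col1a1. Unloaded muscle had 31.1 FPKM of Col1a2, 24.6 of Col3a1 and 17.4 of Col6a1 in mKO, and 36.4, 27.5 and 19.1 FPKM of the same genes in flox/flox muscle, so Col6a1 did not lead there. Col6a2 and Col6a1 were then close, at 42.6 and 41.8 FPKM in reloaded mKO muscle and 50.8 and 51.1 FPKM in reloaded flox/flox muscle. Col12a1 was lowest by both lengths.

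mKO and flox/flox muscle were then compared at each stage. At reloading all 10 collagen genes had negative log2 differences, with a median of -0.44 against 0.00 over all genes, and 3 of them fell below flox/flox muscle by the test (lower in 3.85% of all tested genes). These were Col3a1, Col5a1 and Col5a2. Their reloaded values, given above, did not overlap between the genotypes, and the same held for Col6a1 and Col6a3, 5 genes in all (background 12.8%). In reloaded mKO muscle Col3a1 averaged 639.6 ± 139 CPM, against 1266 ± 260.3 CPM in reloaded flox/flox muscle, a log2 difference of -0.99 ± 0.25 (SE, adjusted p = 0.0303). Col5a2 averaged 86.1 ± 16.1 CPM, against 163 ± 33.1 CPM in flox/flox muscle, a difference of -0.92 ± 0.17 (SE, adjusted p = 0.00518). Col5a1 averaged 88.2 ± 13.2 CPM, against 137 ± 18.1 CPM, a difference of -0.63 ± 0.15 (SE, adjusted p = 0.0212). Col6a3 came next among those not called, with 162 ± 17.3 CPM against 222 ± 33.8 CPM in flox/flox muscle and a difference of -0.45 ± 0.14 (SE, adjusted p = 0.0623). It was called, however, with DESeq2 (adjusted p = 0.0250), with the replicate number as a block (0.0213), with total-count scaling (0.0150) and without replicate 1 of the mKO controls or replicate 2 of reloaded mKO muscle (0.0295 and 0.0341). The type I genes differed least, at -0.20 (adjusted p = 0.783) for Col1a1 and -0.16 (adjusted p = 0.763) for Col1a2. The calls rested on few libraries: without replicate 3 of reloaded mKO muscle 0 collagens were called, with adjusted p = 0.183 for Col3a1, 0.136 for Col5a1 and 0.0519 for Col5a2. Without replicate 1 of reloaded mKO muscle, or replicate 1 or 2 of reloaded flox/flox muscle, 1 collagen, Col5a2, was called, and the adjusted p of Col3a1 and Col5a1 was between 0.0566 and 0.168. With total-count scaling the median of all genes moved by -0.13 in this comparison and 2.42% of calls were higher in mKO, against 21.6% with TMM.

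**Figure D3:**
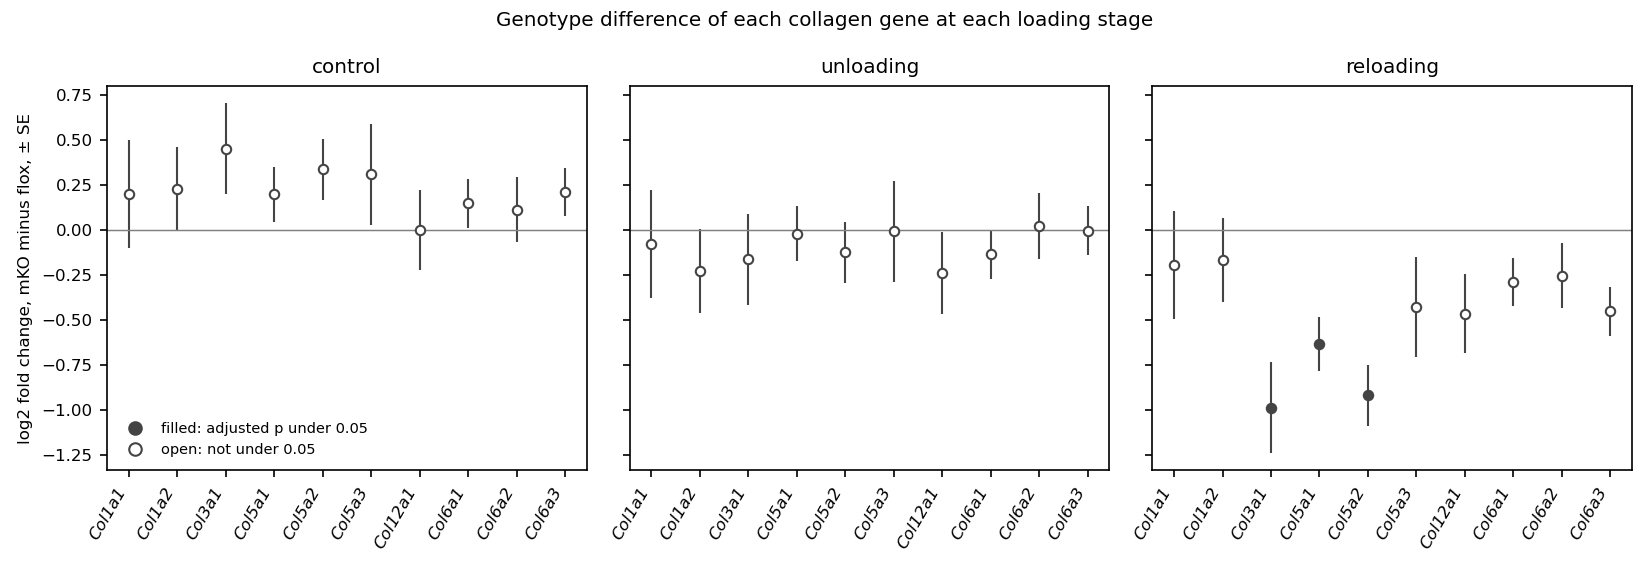
Log2 fold change of mKO minus flox/flox (labelled flox) muscle with its standard error (y axis) for each collagen gene (x axis) in controls, after unloading and after reloading. Filled points have an adjusted p under 0.05. The filled points are Col3a1, Col5a1 and Col5a2 after reloading, at -0.99, -0.63 and -0.92.

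Before reloading the genotypes were not told apart at this depth and number of libraries. In controls the mKO minus flox/flox differences ran from 0.00 for Col12a1 to 0.45 for Col3a1. There edgeR called 0 of 10 collagens (background 0.0%), with 0 at an unadjusted p under 0.05 (718 of all 17833 genes) and 0 by DESeq2. After unloading the differences ran from -0.24 for Col12a1 to 0.02 for Col6a2. Again 0 were called (background 0.0%), with 0 at an unadjusted p under 0.05 (816 of all 17833 genes) and 0 by DESeq2. Whether the genotypes' changes with load differed was tested as an interaction. The change from control to reloading differed for 1 collagen, Col5a2 (lower in 0.499% of all genes), by -1.25 ± 0.24 (SE, adjusted p = 0.0342). Its mKO minus flox/flox difference was -0.92 after reloading, against 0.33 in controls. Col3a1, at -1.44 (adjusted p = 0.0721), Col5a1, at -0.83 (adjusted p = 0.0858), and Col6a3, at -0.66 (adjusted p = 0.122), missed the threshold, and DESeq2 called all 3 (adjusted p = 0.0340, 0.0173 and 0.0445). When any 1 of 9 libraries was left out, all among controls or reloaded muscle, the Col5a2 interaction also missed it, with values from -1.08 to -1.34 and adjusted p from 0.0603 to 0.126. The change from unloading to reloading differed for 0 collagens (background 0.0%) and for 0 by DESeq2. At an unadjusted p under 0.05 there were 4, where 1873 of all 17833 genes were. Col5a2 came nearest at -0.79 (adjusted p = 0.227). The change from control to unloading differed for 0 (background 0.0%), with 0 at an unadjusted p under 0.05 (733 of all 17833 genes) and 0 by DESeq2.

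The authors' deposited tables of comparisons between stages are named for mKO muscle, but their p-values ranked as those of DESeq2 interaction fits to the counts (Spearman correlation of at least 0.9997 over the 211 genes checked in each), that is, the change in mKO minus the change in flox/flox muscle. In the authors' deposited table for reloading against control, the adjusted p was 0.000313 for Col5a2, 0.0160 for Col5a1, 0.0317 for Col3a1 and 0.0414 for Col6a3, among 427 genes under 0.05. In the authors' deposited table for reloading against unloading none of the 10 was under 0.05, and Col5a2 was nearest at 0.0883.

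RefSeq promoter sequences of GRCm38.p6 were at hand for 7 of the 10 genes. Those of Col3a1 and Col5a1 are shown as members called lower in mKO muscle at reloading, and that of Col5a3 as the type V gene that did not pass that test, each as the 250 bases before the RefSeq start, written 5′ to 3′ on the gene's strand. The windows are chr1:45311288-45311537 on the plus strand, chr2:27886175-27886424 on the plus strand and chr9:20815068-20815317 on the minus strand. Capitals mark matches, on either strand, to any of 4 short motifs. The TATA element was searched as TATAAA. The element bound by NF-Y was searched as CCAAT, the GC box of Sp1 as GGGCGG, and the AP-1 site as TGANTCA.
Col3a1: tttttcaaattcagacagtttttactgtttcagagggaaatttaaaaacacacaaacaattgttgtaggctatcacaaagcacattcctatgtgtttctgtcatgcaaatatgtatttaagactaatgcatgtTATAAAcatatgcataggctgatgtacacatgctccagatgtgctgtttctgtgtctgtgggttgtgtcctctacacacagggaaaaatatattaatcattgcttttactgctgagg
Col5a1: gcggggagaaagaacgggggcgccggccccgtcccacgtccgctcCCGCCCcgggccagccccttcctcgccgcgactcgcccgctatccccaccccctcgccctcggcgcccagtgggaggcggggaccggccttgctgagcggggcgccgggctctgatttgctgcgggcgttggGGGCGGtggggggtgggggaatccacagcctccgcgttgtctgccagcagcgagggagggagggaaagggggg
Col5a3: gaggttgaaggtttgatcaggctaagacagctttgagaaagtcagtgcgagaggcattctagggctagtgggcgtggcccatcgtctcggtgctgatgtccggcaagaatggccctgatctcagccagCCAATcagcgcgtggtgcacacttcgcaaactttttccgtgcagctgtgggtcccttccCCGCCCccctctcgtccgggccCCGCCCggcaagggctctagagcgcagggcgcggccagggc
The windows differ in make-up, with 35.2% G or C in Col3a1, 76.4% in Col5a1 and 62.8% in Col5a3, against a median of 52.4% over the 32851 promoters of the table. Col3a1 held 1 TATAAA, 117 bases before the start, a motif found in 12.4% of all promoters. Col5a1 held 2 GC boxes, 205 and 73 bases before the start, and Col5a3 held 2 at 63 and 41 bases, with 32.7% of all promoters holding any. Col5a3 also held 1 CCAAT, at 122 bases, as 33.8% of promoters do, and no match overlapped another. TGANTCA, found in 6.75% of promoters, was in none of these 3 windows. By these letters Col5a1 and Col5a3 thus shared the GC box, which Col3a1 lacked, and Col3a1 alone held TATAAA. This is a description of sequence and not of any factor's binding.

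The ratio of 2 genes within a library does not depend on how libraries are scaled, so ratios of per-length levels were compared between stages across both genotypes, with exact two-sided permutation tests and adjustment over 32 tests. The smallest p such a test can give is 0.005. The chains of type I did not move in step. Col1a1 per Col1a2 was 1.24, 1.42 and 1.32 in mKO controls, 0.970, 1.25 and 1.17 after unloading and 1.48, 1.63 and 1.59 after reloading. It was 1.45, 1.46 and 1.11 in flox/flox controls, 0.916, 1.10 and 1.10 after unloading and 1.52, 1.66 and 1.58 after reloading of flox/flox muscle. The reloaded ratios were above all others in both genotypes. On the log2 scale the ratio changed by -0.30 on unloading (adjusted p = 0.0246, exact permutation), rose by 0.55 on reloading (adjusted p = 0.0178, exact permutation) and ended 0.25 above controls (adjusted p = 0.0178, exact permutation). The change on unloading lost its call when any of 6 single libraries was left out, at adjusted p from 0.0533 to 0.0800. The ratio's size depends on gene length, as above, and its changes do not.

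Type III rose relative to type I when load was removed. Col3a1 per Col1a1 was 0.677, 0.724 and 0.581 in mKO controls, 1.09, 0.942 and 0.752 after unloading and 0.865, 0.735 and 0.606 after reloading. It was 0.790, 0.363 and 0.620 in flox/flox controls, 0.957, 1.09 and 0.849 after unloading and 1.57, 1.16 and 1.20 after reloading of flox/flox muscle. It was higher after unloading by 0.63 on the log2 scale (adjusted p = 0.0178, exact permutation). From control to reloading it differed by 0.68 (adjusted p = 0.0427, exact permutation), made up of 0.14 in mKO and 1.21 in flox/flox muscle, and the adjusted p was from 0.05 to 0.1 when any of 7 single libraries was left out. From unloading to reloading the log2 change was -0.33 in mKO and 0.43 in flox/flox muscle, together 0.05 (adjusted p = 0.790, exact permutation). After reloading mKO minus flox/flox was -0.83, and over all 3 stages -0.23 (adjusted p = 0.339, exact permutation). For all 8 ratios the test between genotypes over the 3 stages missed the threshold, with unadjusted p from 0.239 to 0.777 by exact permutation.

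**Figure D4:**
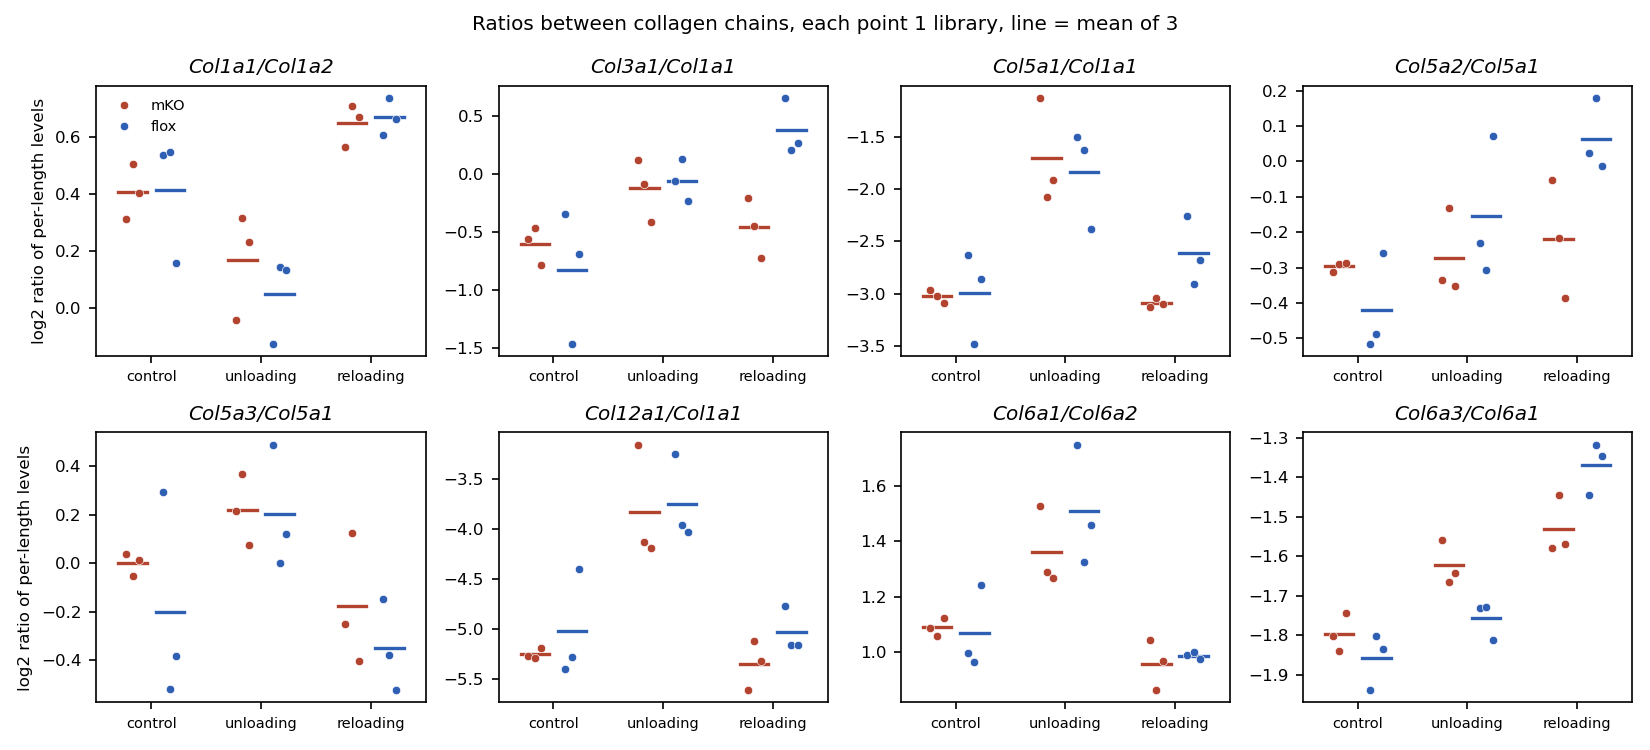
Log2 ratio of per-length levels (y axis, a separate scale in each panel) of 8 pairs of collagen genes at each loading stage (x axis) in mKO (red, left) and flox/flox (blue, right, labelled flox) muscle. Each point is 1 library and each line the mean of 3. Col5a1/Col1a1 and Col12a1/Col1a1 are highest on average after unloading in both genotypes, and Col1a1/Col1a2 is lowest on average then.

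The minor fibril collagens held their level better than type I when load was removed. Relative to Col1a1, Col5a1 was higher after unloading by 1.24 (adjusted p = 0.0178, exact permutation) and Col12a1 by 1.35 (adjusted p = 0.0178, exact permutation). On reloading these log2 ratios changed by -1.09 and -1.40, with adjusted p of 0.0246 and 0.0178 by exact permutation. Within type V, Col5a2 per Col5a1 differed by 0.28 between reloading and control (adjusted p = 0.0700, exact permutation). That value was made up of 0.08 in mKO and 0.48 in flox/flox muscle. Col5a3 per Col5a1 changed by -0.47 on reloading (adjusted p = 0.0246, exact permutation). Within type VI, Col6a1 per Col6a2 rose by 0.36 on unloading and changed by -0.46 on reloading (adjusted p = 0.0178 for each, exact permutation). Over both genotypes, Col6a3 per Col6a1 rose at both steps, by 0.14 and 0.24 (adjusted p = 0.0246 and 0.0343, exact permutation). It ended 0.38 above controls (adjusted p = 0.0178, exact permutation). The reloading step was 0.09 in mKO, where unloaded and reloaded libraries overlapped, and 0.39 in flox/flox muscle. The rise on reloading lost its call without replicate 2 or 3 of unloaded mKO muscle (adjusted p = 0.0640 in each, exact permutation).

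The members were also compared with one another across the 18 libraries, as a description: libraries share their groups, so a common course with load raises every value. Log2 levels of all 45 pairs had Pearson's r from 0.722 (Col5a3 with Col1a2) to 0.994 (Col1a1 with Col1a2). Col6a1 with Col6a2 had 0.988 and Col5a2 with Col3a1 had 0.981. Both of these pairs are neighbours on a chromosome: Col3a1 and Col5a2 end 24614 bases apart on opposite strands, and 85161 bases lie between Col6a2 and Col6a1. Pairs on different chromosomes reached like values, with 0.994 for Col1a1 with Col1a2 and 0.981 for Col5a1 with Col3a1. Outside the collagens chosen, the tested genes whose log2 CPM followed the mean z-score of the 10 most closely were Pcolce (r = 0.988), which enhances removal of the procollagen C-propeptide, Thy1 (0.982), a surface glycoprotein of fibroblasts, and Col4a1 (0.981), a basement membrane collagen. Mfap4 (0.980), Loxl2 (0.979), Emilin1 (0.977), Fkbp10 (0.976) and Ttll12 (0.974) came next, over 18 libraries each. Loxl2 cross-links collagen, Fkbp10 is a procollagen chaperone, and Mfap4 and Emilin1 are elastic fibre proteins.

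Over all tested genes 9.53% rose and 8.81% fell on reloading over unloading in mKO muscle, and 17% rose and 14.9% fell in flox/flox muscle. The lists of genes around the collagens are described by their counts beside these shares, with no test of a list. Of 21 enzymes and chaperones of synthesis in the endoplasmic reticulum, 7 fell on unloading in mKO and 8 in flox/flox muscle. On reloading 12 rose in mKO, and 16 rose and 1, the secretory cargo receptor gene Mia3, fell in flox/flox muscle. Serpinh1, the collagen chaperone HSP47, averaged 121 ± 25.1 CPM in reloaded mKO muscle, against 45.8 ± 4.17 CPM after unloading, a log2 fold change of 1.40 ± 0.15 (SE, adjusted p = 1.61e-05). The flox/flox averages were 163 ± 24.7 CPM after reloading, against 44.0 ± 4.37 CPM after unloading, a change of 1.89 ± 0.15 (SE, adjusted p = 1.70e-07). Fkbp10 rose by 1.54 and the prolyl hydroxylase subunit P4ha3 by 2.83 in flox/flox muscle (adjusted p = 1.28e-07 and 0.000188). Reloaded mKO muscle was below flox/flox muscle for 2 of the 21, the lysyl hydroxylase Plod2, at -0.86 ± 0.14 (SE, adjusted p = 0.00225), and Fkbp10, at -0.45 ± 0.11 (SE, adjusted p = 0.0299). The median log2 fold change of this list on reloading was 0.36 in mKO and 0.51 in flox/flox muscle, against 0.01 and 0.00 over all genes.

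Of 14 genes for propeptide removal and cross-linking, 5 fell on unloading in mKO and 4 in flox/flox muscle. On reloading 6 rose and 1 fell in mKO, and 8 rose and 1 fell in flox/flox muscle, with medians of 0.48 and 0.85. Loxl2 rose by 1.27 ± 0.21 (SE, adjusted p = 0.000426) in mKO and 1.95 ± 0.21 (SE, adjusted p = 2.67e-06) in flox/flox muscle. Lox, the lysyl oxidase that starts cross-links, averaged 24.7 ± 9.54 CPM in reloaded mKO muscle, against 71.2 ± 17.3 CPM in reloaded flox/flox muscle, a difference of -1.53 ± 0.22 (SE, adjusted p = 0.00138), and Loxl3 differed by -0.66 ± 0.15 (SE, adjusted p = 0.0173). Pcolce2, a relative of Pcolce, was the gene that fell, with log2 fold changes of -0.59 in mKO and -0.69 in flox/flox muscle.

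Among 20 fibril-bound partners, 11 rose on reloading in mKO muscle, and 11 rose and 1 fell in flox/flox muscle, with medians of 0.57 and 0.63. Postn, which encodes periostin, averaged 69.3 ± 9.74 CPM in reloaded mKO muscle, against 298 ± 48.5 CPM in reloaded flox/flox muscle, a difference of -2.10 ± 0.30 (SE, adjusted p = 0.00138). Cthrc1, a secreted protein of repairing fibroblasts, differed by -2.16 ± 0.26 (SE, adjusted p = 0.000408) and tenascin-C (Tnc) by -1.78 ± 0.29 (SE, adjusted p = 0.00236). The difference between genotypes in these 3 partners was thus wider than the -0.99 of Col3a1, a comparison of sizes that was not tested. Decorin (Dcn), which coats fibrils, was the partner that fell on reloading in flox/flox muscle, with -0.40 ± 0.13 (SE, adjusted p = 0.0267). On unloading 7 partners fell in mKO and 3 in flox/flox muscle, and Sparc, a collagen-binding glycoprotein, fell in both, with log2 fold changes of -1.41 ± 0.14 (SE, adjusted p = 5.96e-05) and -0.97 ± 0.14 (SE, adjusted p = 0.000811).

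Other fibrillar and fibril-associated collagens did not share one course. Of 15 tested, 6 fell on unloading in mKO and 2 in flox/flox muscle. On reloading 5 rose and 1 fell in mKO, and 4 rose and 1 fell in flox/flox muscle. Col14a1, a fibril-surface collagen, and Col16a1 rose in flox/flox muscle by 1.18 and 1.25 (adjusted p = 0.00212 and 1.15e-05). Col11a1, which shares the fibril-nucleating role of type V, fell on unloading, with -1.57 ± 0.21 (SE, adjusted p = 0.000285) in mKO and -1.20 ± 0.21 (SE, adjusted p = 0.00273) in flox/flox muscle. At reloading 2 were higher in mKO than in flox/flox muscle, Col9a1 by 0.83 ± 0.18 (SE, adjusted p = 0.0108) and Col22a1, a collagen of the myotendinous junction, by 0.68 ± 0.19 (SE, adjusted p = 0.0397), where 1.06% of all genes were higher. The count of 2 was 1 with total-count scaling and 0 without replicate 2 of reloaded flox/flox muscle.

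Of 13 collagen receptors tested, 2 rose on reloading in mKO, and 5 rose and 1 fell in flox/flox muscle, so that the mKO count and the single fall lie near the shares of all genes. Mrc2, the endocytic collagen receptor, rose by 0.84 in mKO and 1.01 in flox/flox muscle (adjusted p = 0.00184 and 0.000140). Of 12 degradation genes tested, 3 rose and 2 fell in mKO, and 4 rose and 3 fell in flox/flox muscle. Timp1, which inhibits matrix metalloproteases, rose most, by 3.04 ± 0.34 (SE, adjusted p = 2.57e-05) in mKO and 4.06 ± 0.33 (SE, adjusted p = 2.62e-07) in flox/flox muscle, and Timp4, of the same family, fell, with -1.06 and -1.31. Of 24 genes of TGF-beta signalling, which drives collagen transcription in fibroblasts, 5 rose and 5 fell on reloading in mKO, and 10 rose and 4 fell in flox/flox muscle. Tgfb1 rose by 0.51 in mKO and 1.04 in flox/flox muscle (adjusted p = 0.0339 and 8.67e-05). Among those that fell in mKO muscle were the target gene Ccn2, at -1.18 (adjusted p = 0.00409), and Tgfbr1, at -0.43 (adjusted p = 0.00157). Ccn2 also ended below mKO controls, at -1.15 (adjusted p = 0.0276). At reloading 4 of the 24 were lower in mKO than in flox/flox muscle, among them Ccn2, at -1.50 ± 0.26 (SE, adjusted p = 0.00373).

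Markers of cell types moved with some of these results. On unloading the summed level of 10 tendon markers was 304 to 441 CPM in mKO, against 582 to 821 CPM in mKO controls, and 403 to 486 CPM in flox/flox muscle, against 524 to 928 CPM in its controls. Of them 6 fell in mKO and 2 in flox/flox muscle, Tnmd with log2 fold changes of -1.29 and -0.88. After reloading they summed to 550 to 835 CPM in mKO and 569 to 861 CPM in flox/flox muscle. Over unloading 4 rose and 1 fell in mKO, and 5 rose and 1 fell in flox/flox muscle. Thbs4 made up a large part of the sum, at 251 ± 67.5 CPM in reloaded mKO and 347 ± 77.4 CPM in reloaded flox/flox muscle. None of the tendon markers was at 0, and 2 of the 10, Fmod and Kera, are also in the list of fibril partners. The part of tendon in the fall and rise of the collagens was not tested.

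**Figure D5:**
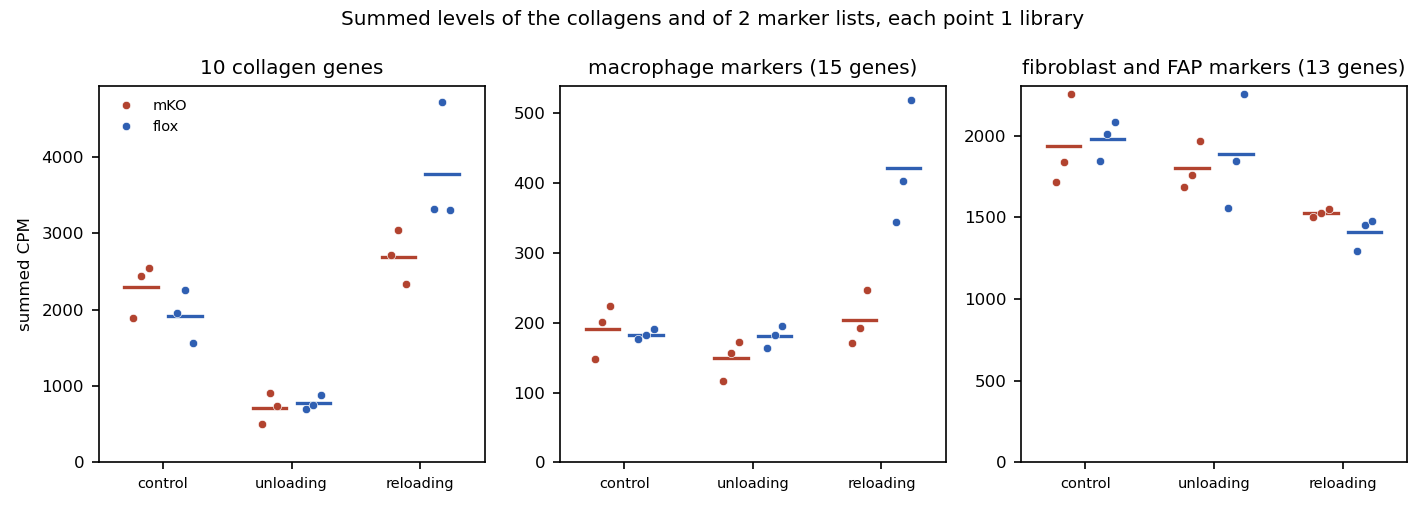
Summed CPM (y axis, linear from 0, a separate scale in each panel) of the 10 collagen genes, of 15 macrophage markers and of 13 fibroblast and fibro-adipogenic progenitor (FAP) markers at each loading stage (x axis) in mKO (red, left) and flox/flox (blue, right, labelled flox) muscle. Each point is 1 library and each line the mean of 3. Reloaded flox/flox muscle stands above every other group in macrophage markers, at 344 to 519 CPM. The fibroblast and FAP sum is lowest there, and most of it is Gsn. In flox/flox muscle Gsn fell on reloading over unloading, while 6 of the 13 markers rose.

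At reloading the 15 macrophage markers summed to 171 to 246 CPM in mKO, against 344 to 519 CPM in flox/flox muscle, and to 117 to 223 CPM in all unloaded and control libraries. In mKO muscle 12 of the 15 were lower than in flox/flox muscle, with a median of -1.17, among them Cd68, at -1.63 ± 0.26 (SE, adjusted p = 0.00225). None was at 0. The genotype difference of Col3a1, Col5a1 and Col5a2 thus coincided with one in macrophage markers, whose part in it was not tested. The 13 markers of fibroblasts and FAPs summed to 1500.1 to 1552 CPM in reloaded mKO muscle and 1297 to 1480 CPM in reloaded flox/flox muscle, against 1718 to 2256 CPM in mKO controls and 1845 to 2085 CPM in flox/flox controls. In unloaded muscle, where the collagens were lowest, they summed to 1686 to 1966 CPM in mKO and 1559 to 2253 CPM in flox/flox muscle. Most of each sum is Gsn, so the sums do not show the course of the other markers. In unloaded muscle Gsn averaged 1335 ± 143 CPM in mKO and 1408 ± 318 CPM in flox/flox muscle. Its level was 795 ± 85.0 CPM in reloaded flox/flox muscle, against 1387 ± 102 CPM in flox/flox controls. Of the 13, 3 fell and 0 rose on unloading in each genotype, where 3.66% of all genes fell in mKO and 3.07% in flox/flox muscle. The median log2 fold change of the 13 was -0.34 in mKO and -0.33 in flox/flox muscle. Those that fell were Cd248, at -0.75 and -1.20, Dpt, at -0.54 and -0.47, and Cd34, at -0.45 and -0.42, in the same order. On reloading over unloading 3 of the 13 rose and 1 fell in mKO, and 6 rose and 1 fell in flox/flox muscle. The gene that fell was Gsn in each. Cd248, a surface protein of stromal cells, rose by 1.06 ± 0.17 (SE, adjusted p = 0.000446) in mKO muscle. At reloading Mfap5, Ly6a and Cd34 were lower in mKO than in flox/flox muscle, at -0.69, -0.56 and -0.28 (adjusted p = 0.00890, 0.0119 and 0.0315). Of 9 endothelial markers, 3 rose on reloading in mKO and 5 in flox/flox muscle, and they summed to 395 to 436 CPM in reloaded mKO muscle, against 462 to 520.0 CPM in reloaded flox/flox muscle. Sums of pericyte and smooth muscle markers were 865 to 1031 CPM over all libraries. Schwann cell markers summed to 182 to 392 CPM and adipocyte markers to 65.5 to 293 CPM over all libraries. The 12 myofibre markers stood the other way round and summed to 151088 to 185927 CPM in reloaded mKO muscle, against 129076 to 150012 CPM in reloaded flox/flox muscle, with 3 of 12 called higher in mKO and a median log2 difference of 0.30. The count of 3 was 0 with total-count scaling, 5 with DESeq2 and 0 to 6 when single libraries were left out, with 0 without replicate 1 or 3 of reloaded mKO or 1 or 2 of reloaded flox/flox muscle. In reloaded flox/flox muscle 5 of the 12 were lower than in its controls, where 10.3% of all genes were. The part of endothelial and myofibre RNA in the genotype difference of the collagens was not tested.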

How the data were processed

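Stranded polyadenylated-RNA libraries (Trizol, TruSeq, per the labels' protocols) were counted per gene by the authors with featureCounts 1.6.4 and Ensembl release 94, per the file headers, whose command shows no strand, pair or multimapping option. The submitters' processing notes name STAR 2.7.3a, featureCounts 2.0.3 and GRCm38.p6. The deposited raw counts were used as they stand. The authors' deposited tables also hold log2 fold changes, shrunken and not printed here, and DESeq2 p-values. No 2 libraries of the same group agreed within sampling noise (chi-square per gene at least 24.9), and pairs across groups were not checked. All 18 sample columns were matched to labels. Symbols were found for 54409 of 54532 genes.

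Genes were filtered by filterByExpr and scaled by TMM, and 6 groups were fitted together with edgeR 4.0.16 quasi-likelihood tests in R 4.3.3 (limma 3.58.1; 12 residual degrees of freedom). In the main fit p-values were adjusted by Benjamini-Hochberg over 17833 genes, and in the ratio tests over 32 tests. DESeq2 and the other alternative fits were adjusted over the genes each of them kept. The steps were tested on simulated data. CPM use TMM-scaled library sizes, and ratios use exact permutations (numpy 2.4.6). Spearman correlations use scipy 1.17.1, and the other correlations use log2 CPM with a prior count of 2. The sequencing depth left counting error below the spread between 3 libraries, whose small number sets the precision. The alternatives tried were other scaling and filters, the replicate number as a block, fewer groups in the fit, DESeq2 1.42.0 and leaving out each library. Promoter sequences are from the RefSeq table of GRCm38.p6.

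The members and gene lists were chosen with earlier results of these data known. Beside the 10 members and Zfp697, up to 3 called genes with the largest change in each direction could be named per list and comparison, and the 8 genes most like the members. Lists covered synthesis, cross-linking, fibril partners, receptors, degradation, TGF-beta signalling, other collagens and markers of cell types.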

Additional observations from a re-analysis of the deposited data

Results flagged for a closer look

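The change of Col5a2 from control to reloading differed between the genotypes by the interaction test, at a log2 difference of -1.25 ± 0.24 (SE, adjusted p = 0.0342), with edgeR's quasi-likelihood test. Its libraries had 88.9, 101 and 68.8 CPM in reloaded mKO muscle, against 58.5, 73.7 and 78.7 CPM in mKO controls. In flox/flox muscle they had 156, 198 and 133 CPM after reloading, against 62.5, 54.6 and 50.2 CPM in controls. The change was thus 0.29 in mKO and 1.54 in flox/flox muscle. It rests on few libraries, since leaving out any of 9 single libraries gave adjusted p from 0.0603 to 0.126.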

How the results depend on the processing

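With no filter on low counts, edgeR called 2 collagens between reloaded mKO muscle and its controls (0 as reported), 1 between the genotypes in controls (0), 6 at reloading (3), and 1, 3 and 5 in the interactions of unloading with control, reloading with unloading and reloading with control (0, 0 and 1). The cause was not tested. For the last of these interactions the count was 4 with total-count scaling, 2 with fewer groups in the fit and 4 with DESeq2, and the cause was not tested. Between reloaded mKO muscle and its controls the count was 1 with DESeq2 and 1 with the replicate block. Deviations of same-numbered libraries had a median correlation of 0.0244 over 45 pairs (-0.0744 to 0.126), against -0.00428 for libraries of other numbers. Of 18 libraries, 9 correlated best with one of their own number. Whether replicate numbers pair the samples cannot be told from these values. In the ratio tests the block allows no p below 0.03125 between stages and 0.00391 between genotypes, and all 15 called ratio changes, which are between stages, missed the threshold under it. Leaving out each library gave 8 to 10 called collagens for unloading against control in mKO and 6 to 7 in flox/flox muscle, 9 to 10 and 10 for reloading against unloading, and 0 and 5 to 8 for reloading against control. Between genotypes it gave 0 in controls, 0 after unloading and 0 to 4 after reloading, and in the interactions 0, 0 and 0 to 3 in the order above.

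Signs turned for small values. The Col1a2 interaction of reloading with unloading was 0.06, -0.023 with total counts and -0.19 to 0.31 without single libraries, and that of Col1a1 was -0.43 to 0.17. For reloaded mKO muscle against controls the ranges were -0.072 to 0.15 for Col1a2, -0.24 to 0.25 for Col5a3 and -0.057 to 0.34 for Col12a1. Between genotypes at reloading they were -0.36 to 0.093 for Col1a1 and -0.30 to 0.080 for Col1a2, and Col5a3 on unloading in flox/flox muscle had -0.70 to 0.015. Log2 ratios that turned were Col3a1/Col1a1 from unloading to reloading (-0.023 to 0.12), Col12a1/Col1a1 from control to reloading (-0.15 to 0.10), and between genotypes Col6a3/Col6a1 (-0.0022 to 0.021) and Col1a1/Col1a2 (-0.012 to 0.066). Under the settings that kept all libraries, 592 of 630 member fold changes kept direction and call, 34 gained a call, 3 lost it and 1 turned.

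List counts moved most with total-count scaling of the genotypes at reloading, where 8 genes of synthesis (2 with TMM), 6 of cross-linking (2), 9 fibril partners (3), 7 of TGF-beta signalling (4), 3 of degradation (1) and 5 endothelial markers (1) were lower in mKO muscle, and Dcn no longer fell on reloading in flox/flox muscle.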
